A study of Mus musculus with 42 samples.

Results

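Libraries of whole liver RNA made with the NuGEN Ovation RNA-Seq V2 kit (NuG) were compared with libraries of the same RNA made with the Illumina TruSeq RNA v2 kit (Tru4), each started from 4 ng of total RNA. The comparison takes 6 of the 42 libraries of the series, 3 per kit, which are 1 library from each of 3 mice. All mice carried Gfi1-Cre on 1 allele and the RiboTag allele of Rpl22 on both, written Gfi1-Cre/+;Rpl22HA/HA, so that Cre adds an HA tag to ribosomal protein L22 in cells that have expressed Gfi1, a transcriptional repressor of blood cell development. The labels disagree on age, with P30 in the protocol text and P1 in the sample attributes, and the animals received no treatment. The RNA analysed here is the input, that is the total RNA of the liver homogenate before ribosomes were precipitated with an antibody against HA. No group without Cre or without the tagged allele enters the comparison. Both kits saw the same genotype, so the groups differ in the preparation and in the sequencing depth.

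The kits reach cDNA by different routes. TruSeq first pulls out RNA with a poly(A) tail and then primes it with random hexamers, so RNA without a tail is mostly washed away. NuGEN Ovation V2 skips that selection, primes total RNA with a mix of oligo(dT) and semi-random primers, amplifies the cDNA as a whole and only then shears it for sequencing. In this study the sheared NuG cDNA was then built into sequencing libraries with the TruSeq kit. Most RNA in a cell is rRNA, made by the nucleolus for the cytosol and by mitochondria for their own ribosomes, and most mRNA of the liver comes from hepatocytes, which secrete albumin, apolipoproteins and other proteins of the blood plasma.

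The third mouse needs a word on labels. In both kits the library labelled IP replicate 3 was taken as the input of mouse 3 and the library labelled input replicate 3 as its IP. The study's summary table gives the fraction, and the mouse number is that of the labels. Albumin (Alb), the main hepatocyte transcript, stood at 103032, 106227 and 103250 CPM in the 3 NuG libraries used here, CPM being counts scaled to a library total of 1000000, and at 22482 CPM in the NuG library labelled input 3. In Tru4 the values were 134873, 148029 and 138488 CPM in the libraries used, against 22490 CPM in the library labelled input 3. The libraries labelled input 3 held 11 reads of Gfi1 in NuG and 40 in Tru4, while the 6 libraries used held 0, 0 and 0 in NuG and 9, 0 and 0 in Tru4. Results with the fractions as labelled are given in the section on processing choices.

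NuG libraries were shallower. The sum of exon counts was 7482819, 7615866 and 5529417 in NuG and 31299550, 45466334 and 35368451 in Tru4. With the rRNA genes left out, 3712680, 3752962 and 2708322 counts remained in NuG and 30629935, 44960470 and 34816438 in Tru4, and all CPM values below are scaled to these remaining counts. A level of 3 counts, the smallest read here as detected, corresponds to 0.808, 0.799 and 1.11 CPM in the NuG libraries and to 0.0979, 0.0667 and 0.0862 CPM in Tru4. These limits cover counting error only, since reads without molecular identifiers are not independent molecules.

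Ribosomal RNA made up the larger share of the NuG exon counts, and nearly all of it came from mitochondria. The mitochondrial rRNA share of all exon counts was 50.1%, 50.5% and 50.8% in NuG and 0.517%, 0.343% and 0.502% in Tru4. Every NuG library lay far above every Tru4 library. The means were 50.5% ± 0.336 (SD, n = 3) and 0.454% ± 0.0967 (SD, n = 3), a 111-fold ratio. Both mitochondrial rRNA genes took part, with mt-Rnr1, the small subunit 12S rRNA, at 22.8%, 23.1% and 23.2% of NuG counts and mt-Rnr2, the large subunit 16S rRNA, at 27.3%, 27.5% and 27.6%. The same genes took 0.221%, 0.141% and 0.215% (mt-Rnr1) and 0.296%, 0.202% and 0.287% (mt-Rnr2) of Tru4 counts.

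The other annotated rRNA genes went the opposite way. They took 0.291%, 0.180% and 0.269% of exon counts in NuG and 1.62%, 0.770% and 1.06% in Tru4, so the groups did not overlap and the NuG mean was 4.67-fold lower. A single annotated copy, CT010467.1, held most of these counts, with 0.263%, 0.161% and 0.242% in NuG and 1.60%, 0.758% and 1.04% in Tru4. Only uniquely aligned reads were counted, and the many copies of the nuclear rRNA gene are near-identical, so these counts do not measure the cytosolic rRNA in a library. The shares and the ratio cover only the genes set as rRNA here, and other loci with rRNA sequence were not searched for. With 3 libraries against 3, the two-sided exact permutation test cannot go below p = 0.1, which is the p of each of these rRNA differences.

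**Figure D1:**
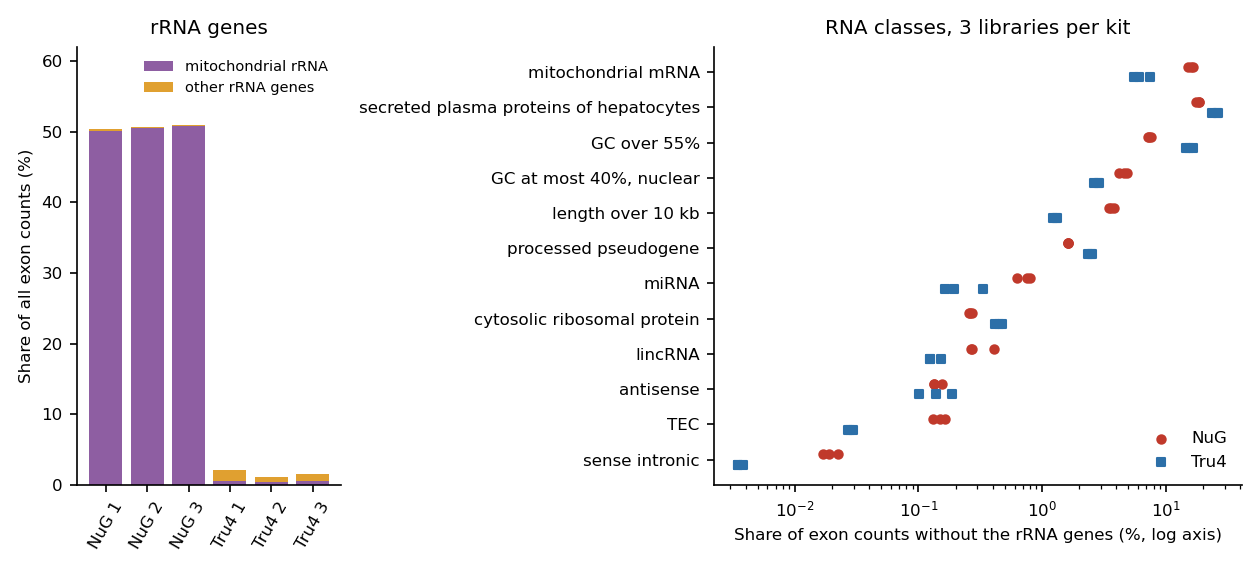
Left, share of all exon counts (%) on mitochondrial rRNA and on other rRNA genes, stacked, for each of the 6 libraries. Right, share of the exon counts without the rRNA genes (%, log axis) of 12 RNA and gene classes, with 1 point per library. The NuG libraries stand at 50.1% to 50.8% mitochondrial rRNA against 0.343% to 0.517% in Tru4, and on the right the libraries of the kits overlap for antisense genes only among the classes drawn.

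Outside the rRNA genes, 14192 genes had enough counts for the test across all genes (edgeR's quasi-likelihood test with Benjamini-Hochberg adjustment, threshold 0.05). Of these, 3442 were higher in NuG (24.3%) and 3784 were lower (26.7%), which makes 7226 in all (50.9%). The libraries of the kits did not overlap for 8401 genes (59.2%), a count made without a test. Many differences were large: 2208 genes were at least 2-fold higher and 2730 at least 2-fold lower, 704 and 969 at least 4-fold, and 171 and 109 at least 16-fold. The median log2 fold change of NuG over Tru4 was -0.03, and its sign turned when all libraries were thinned to 1 depth (0.02).

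GC content and transcript length separated the genes that were higher from those that were lower. GC content and length were taken from the longest annotated transcript of a gene, which 14153 of the tested genes have. Genes higher in NuG had a median GC content of 44.3% and a median length of 4436 bases. Genes lower in NuG had medians of 54.3% and 2395 bases, and genes that did not pass the test lay between them with 48.9% and 3058 bases. The starts of the coding sequences of 4 genes lower in NuG and 4 higher in NuG show the range of composition among annotated transcripts. The first 90 coding bases are printed from the longest GENCODE M21 transcript of each gene on GRCm38, 5′ to 3′, with every G and C in capitals. Which transcript of a gene the counted reads come from was not tested, so a printed start may not be the one used in liver.
Jund (lower): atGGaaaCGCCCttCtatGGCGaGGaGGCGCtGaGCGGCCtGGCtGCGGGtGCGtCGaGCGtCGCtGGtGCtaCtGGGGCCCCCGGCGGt
Apoe (lower): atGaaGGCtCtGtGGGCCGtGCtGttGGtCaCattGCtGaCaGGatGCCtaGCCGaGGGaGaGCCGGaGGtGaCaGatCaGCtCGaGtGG
Gpx4 (lower): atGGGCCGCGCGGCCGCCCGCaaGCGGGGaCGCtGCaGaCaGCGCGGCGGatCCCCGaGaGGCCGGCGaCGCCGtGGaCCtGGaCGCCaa
Rps2 (lower): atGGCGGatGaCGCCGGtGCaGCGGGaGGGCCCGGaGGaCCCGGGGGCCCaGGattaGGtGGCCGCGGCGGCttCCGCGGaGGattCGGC
Apob (higher): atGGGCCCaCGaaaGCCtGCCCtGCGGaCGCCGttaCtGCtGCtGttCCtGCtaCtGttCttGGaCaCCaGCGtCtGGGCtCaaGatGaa
F8 (higher): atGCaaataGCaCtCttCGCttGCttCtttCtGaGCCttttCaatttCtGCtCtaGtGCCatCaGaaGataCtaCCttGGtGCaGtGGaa
Cyp7a1 (higher): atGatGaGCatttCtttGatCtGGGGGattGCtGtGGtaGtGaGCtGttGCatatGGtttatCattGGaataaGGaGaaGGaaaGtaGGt
mt-Nd5 (higher): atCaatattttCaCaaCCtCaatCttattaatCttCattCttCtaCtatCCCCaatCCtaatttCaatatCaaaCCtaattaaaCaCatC
G and C made up 71.1%, 60%, 77.8% and 75.6% of the 4 stretches of genes lower in NuG, and 58.9%, 43.3%, 41.1% and 27.8% of the 4 stretches of genes higher in NuG. Over the whole transcript the GC content was 67.1%, 59.5%, 60.2% and 55.9% for Jund, Apoe, Gpx4 and Rps2, and 43.5%, 39.0%, 39.7% and 37.1% for Apob, F8, Cyp7a1 and mt-Nd5. The stretches of Gpx4, Rps2 and Apob are much richer in G and C than their transcripts, so the start of a coding sequence does not stand for the whole.

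Across GC classes the calls moved from one direction to the other in order. Of 904 genes with 35% to 40% GC, 534 were higher in NuG and 23 lower, with a median log2 fold change of 1.03. Between 40% and 45%, 1358 of 2959 were higher and 162 lower (median 0.67). Between 45% and 50%, 1108 of 3839 were higher and 585 lower (median 0.25). The balance turned between 50% and 55%, where 345 of 3585 were higher and 1320 lower (median -0.48). Between 55% and 60%, 47 of 2320 were higher and 1350 lower (median -1.11), and between 60% and 65% the counts were 3 and 310 of 454 (median -1.62). The extreme classes were small, with 33 higher and 2 lower of 58 genes at or under 35% GC (median 1.34) and 3 higher and 25 lower of 34 genes over 65% (median -2.36).

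Length ordered the genes as well. Transcripts over 10 kb numbered 304, of which 202 were higher in NuG and 10 lower (median 1.24), and those of 5 to 10 kb numbered 2589, with 1224 higher and 279 lower (median 0.65). Between 2 and 5 kb, 1521 of 7401 were higher and 1974 lower (median -0.08). Between 1 and 2 kb, 301 of 2442 were higher and 962 lower (median -0.55). Below that, 98 of 891 genes of 0.5 to 1 kb were higher and 356 lower (median -0.57), and 85 of 526 genes of at most 0.5 kb were higher and 196 lower (median -0.58).

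Each property kept its order within classes of the other. Among genes over 55% GC the median log2 fold change was -1.38 for transcripts of at most 2 kb, -1.19 for 2 to 5 kb and -0.80 for over 5 kb. Among genes of at most 45% GC the medians were 0.45, 0.60 and 1.19 in the same order of length. Across the 14153 genes the Spearman correlation of the log2 fold change was -0.609 with GC content and 0.327 with length, and holding the other property gave -0.590 and 0.273. These correlations are across genes of the same 6 libraries, which are not independent replicates, and are given as a description. Single genes stood against the order. Reep6, an endoplasmic reticulum protein gene with 62% GC, had 1469, 1310 and 1115 CPM in NuG and 943, 774 and 714 CPM in Tru4 (0.69 ± 0.14, edgeR adjusted p = 0.0020). Ptms, which encodes parathymosin and has 65.3% GC, followed it, with 103, 101 and 108 CPM in NuG and 1036, 845 and 976 CPM in Tru4 (-3.18 ± 0.14, edgeR adjusted p = 6.6e-07). Across all genes the correlation with GC content was -0.634 on counts thinned to 1 depth and -0.627 with the TruSeq libraries from 70 ng (Tru70) as the reference.

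**Figure D2:**
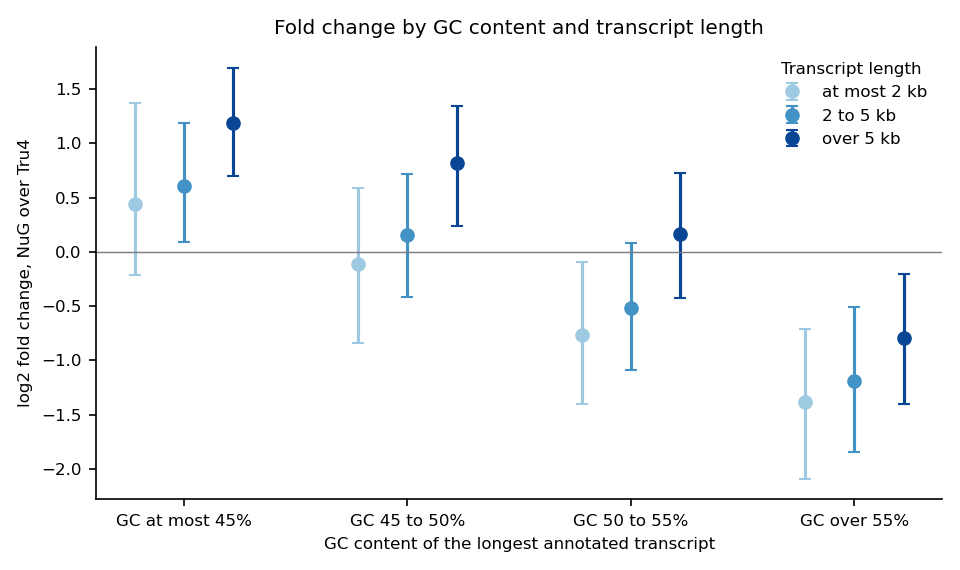
Median log2 fold change of NuG over Tru4 (points) with the interquartile range over genes (bars), for 4 classes of GC content on the x axis and 3 classes of transcript length by shade. The medians run from 1.19 for long transcripts of at most 45% GC to -1.38 for short transcripts over 55% GC, and within each GC class the longer class has the higher median.

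The shares of whole libraries moved with these classes. Transcripts over 10 kb took 3.81%, 3.51% and 3.63% of counts in NuG and 1.24%, 1.30% and 1.32% in Tru4, a 2.84-fold ratio of means with no overlap. Genes over 55% GC took 7.65%, 7.29% and 7.15% in NuG and 16.7%, 15.4% and 14.7% in Tru4, which is 2.12-fold lower. Nuclear genes of at most 40% GC took 4.55% ± 0.330 (SD, n = 3) in NuG and 2.79% ± 0.129 (SD, n = 3) in Tru4. Each of these differences had the smallest exact permutation p of 0.1 (0.119 after adjustment over the 19 share classes).

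Apob, which encodes apolipoprotein B, the scaffold of very low density lipoprotein particles, combines a long transcript with a low GC content. It stood at 17641, 15840 and 15977 CPM in NuG and at 3310, 3534 and 2971 CPM in Tru4. All NuG libraries were well above all Tru4 libraries, and the log2 fold change was 2.35 ± 0.11 (SE; edgeR adjusted p = 6.6e-07), which is 5.09-fold. F8, coagulation factor VIII, reached 78.4, 62.6 and 57.2 CPM in NuG and 7.84, 7.38 and 6.84 CPM in Tru4. Again the groups stood apart, by 3.18 ± 0.17 on the log2 scale (edgeR adjusted p = 1.2e-06). Zfp871, a zinc finger gene with a transcript of 10851 bases, had 154, 147.6 and 103 CPM in NuG against 10.8, 11.9 and 5.57 CPM in Tru4 (3.85 ± 0.28, edgeR adjusted p = 3.4e-06). Among protein-coding genes with a mean of at least 10 CPM in either kit, only the urinary protein gene Mup18 was higher in NuG by a larger log2 fold change.

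Very long transcripts chosen as a list moved in the same direction for the most part. Of 15 listed genes 11 were tested, with 7 higher in NuG and 1 lower, beside 24.3% and 26.7% over all tested genes. The median log2 fold change of the list was 0.90 against -0.03 over all genes. Neb, which encodes the giant muscle protein nebulin, was at 36.1, 29.0 and 21.8 CPM in NuG and 1.40, 3.54 and 3.42 CPM in Tru4 (3.38 ± 0.35, edgeR adjusted p = 2.9e-05). Macf1, a linker between microtubules and actin, was at 139, 126 and 152 CPM in NuG and 43.4, 44.8 and 48.3 CPM in Tru4 (1.62 ± 0.14, edgeR adjusted p = 9.5e-06). Lrp1, an endocytic receptor of hepatocytes whose transcript has 14888 bases and 57.9% GC, was the exception, with 414, 435 and 402 CPM in NuG and 624, 667 and 517 CPM in Tru4 (-0.52 ± 0.13, edgeR adjusted p = 0.0063). Macf1 and Lrp1 were chosen after their values were seen.

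**Figure D3:**
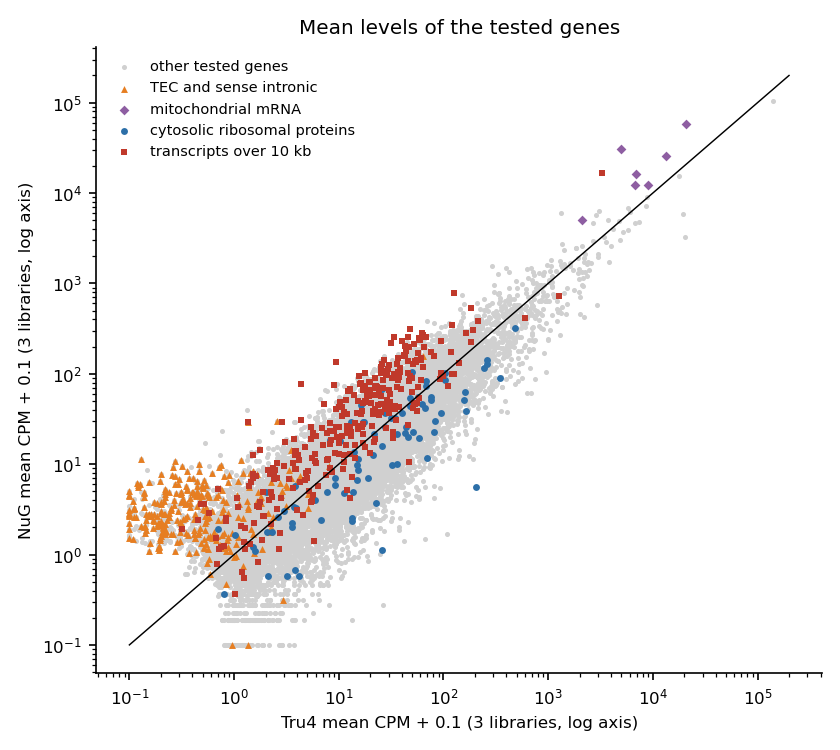
Mean level of each tested gene in Tru4 (x axis) and in NuG (y axis), both in CPM without the rRNA genes plus 0.1, on log axes, with the line of equal levels. Transcripts over 10 kb and mitochondrial mRNAs lie mostly above the line, cytosolic ribosomal protein genes mostly below it, and loci of the TEC and sense intronic classes form a cloud above it at low Tru4 levels.

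Mitochondrial mRNAs were over-represented in NuG together with the mitochondrial rRNA. Mitochondrial mRNA took 15.1%, 15.98% and 16.8% of counts without rRNA in NuG and 5.59%, 6.09% and 7.41% in Tru4, a 2.51-fold ratio of means. Of 13 such genes 7 were tested, and all 7 were higher in NuG with log2 fold changes of 0.46 to 2.65 (median 1.22). The other 6 were near 0 in every library of both kits. The mouse nuclear genome holds near-identical copies of mitochondrial sequence and only unique alignments were counted, so counts of these genes are uncertain.

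mt-Nd5, which encodes a core subunit of complex I of the respiratory chain, changed most in this group. It stood at 30963, 29352 and 31709 CPM in NuG and 3874, 4637 and 6261 CPM in Tru4. The groups were far apart, with a log2 fold change of 2.65 ± 0.18 (edgeR adjusted p = 2.6e-06). mt-Co1, the catalytic subunit of cytochrome c oxidase, had 52420, 56842 and 63406 CPM in NuG and 17742, 20435 and 23405 CPM in Tru4 (1.499 ± 0.14, edgeR adjusted p = 1.4e-05). mt-Cytb, the cytochrome of complex III, had 24040, 27085 and 25798 CPM against 12103, 12798 and 15067 CPM (0.96 ± 0.12, edgeR adjusted p = 0.00011). mt-Nd6, the one protein gene encoded on the light strand, was 2.41-fold higher (1.27 ± 0.16, edgeR adjusted p = 0.00011). The mitochondrial tRNA class as a whole did not separate, at 0.00999% ± 0.00101 (SD, n = 3) of NuG counts and 0.0103% ± 0.00246 (SD, n = 3) of Tru4 counts (exact permutation p = 0.9). Of 22 mitochondrial tRNA genes only 7 were tested, with 6 higher in NuG and 1 lower. The methionine tRNA mt-Tm had 2.15, 4.53 and 3.32 CPM in NuG against 0, 0.0222 and 0.201 CPM in Tru4 (5.39 ± 0.98, edgeR adjusted p = 0.00098). These calls by gene are a description, since a gene near 0 in Tru4, as mt-Tm was, passed the filter only through NuG.

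Nuclear genes for the same respiratory chain went the other way. Of 20 listed genes 19 were tested and 13 were lower in NuG, beside 26.7% over all tested genes. The other 6 of the list did not pass the test, and the median log2 fold change of the list was -1.07. Cox5a, a nuclear subunit of cytochrome c oxidase, was at 14.8, 13.1 and 13.3 CPM in NuG and 75.7, 72.8 and 74.0 CPM in Tru4. Each group was tight and they did not meet (-2.42 ± 0.15, edgeR adjusted p = 2.1e-06). Cox4i1, another subunit of that complex, was at 163, 160 and 191 CPM in NuG and 257, 243 and 275 CPM in Tru4 (-0.58 ± 0.14, edgeR adjusted p = 0.0047). With the mouse as a block 15 of the genes were lower and 3 were higher.

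The secreted proteins that fill liver libraries were lower in NuG as a group. The 25 listed genes took 18.6%, 18.6% and 17.5% of counts in NuG and 25.9%, 26.5% and 23.8% in Tru4. Of the 25, 15 were lower in NuG and 3 were higher, beside 26.7% and 24.3% over all tested genes. The median log2 fold change of the list was -0.55, and with the mouse as a block 19 were lower and 5 higher. The 3 higher genes were Apob, Fn1 (fibronectin, 0.76 ± 0.12) and Trf (transferrin, 0.68 ± 0.13, chosen after its values were seen).

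Apoe, which encodes apolipoprotein E, a ligand for lipoprotein receptors, showed the largest difference of the list. It stood at 3496, 3367 and 2852 CPM in NuG and at 22410, 20482 and 18232 CPM in Tru4, with no overlap (-2.64 ± 0.12, edgeR adjusted p = 6.6e-07, 6.23-fold). Hpx, which encodes the heme-binding protein hemopexin and was chosen after its values were seen, had 611, 586 and 555 CPM in NuG and 3089, 2901 and 2856 CPM in Tru4 (-2.32 ± 0.11, edgeR adjusted p = 6.6e-07). Ahsg, which encodes the plasma protein fetuin-A, had 6926, 6250 and 4493 CPM in NuG and 23507, 20508 and 13822 CPM in Tru4 (-1.70 ± 0.20, edgeR adjusted p = 5.7e-05). The third mouse was the lowest in both kits for Ahsg. Albumin itself differed less, by -0.42 ± 0.09 (edgeR adjusted p = 0.0038), from the CPM values given for the label check. Hamp, the iron-regulating hormone hepcidin, had the opposite sign although its transcript has only 410 bases, with 1381, 1503 and 1553 CPM in NuG and 377, 363 and 458 CPM in Tru4 (1.90 ± 0.14, edgeR adjusted p = 3.9e-06).

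**Figure D4:**
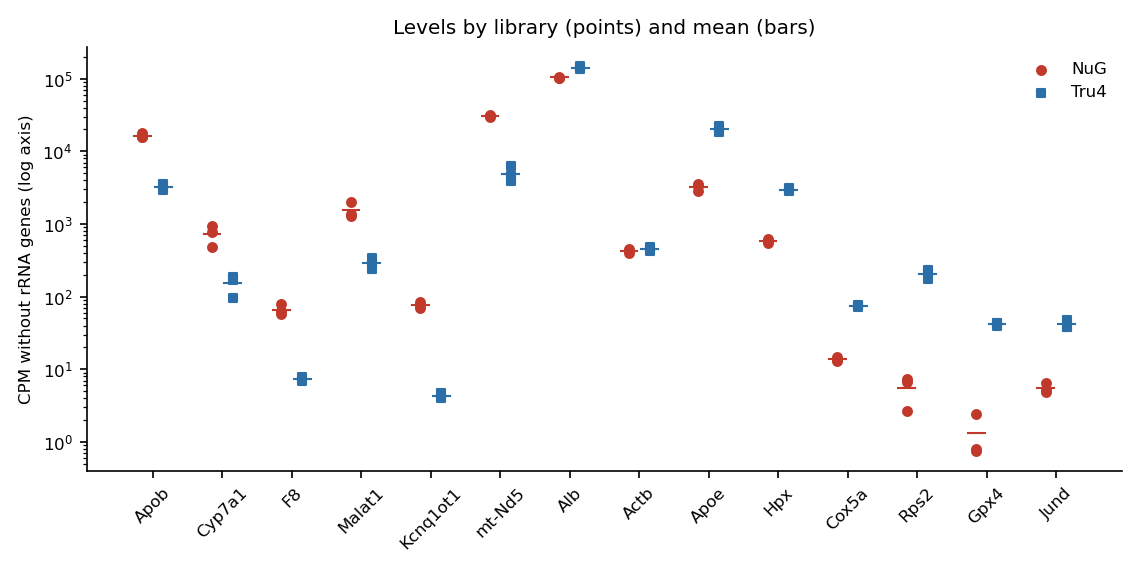
Level of 14 genes in each library (points, CPM without the rRNA genes, log axis) with the mean of each kit (bars). From Apob to mt-Nd5 the NuG libraries lie above the Tru4 libraries, Actb overlaps, and Alb and the genes from Apoe to Jund lie lower in NuG, with Gpx4 at 2.42, 0.799 and 0.738 CPM against 43.3, 38.8 and 43.6 CPM.

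Enzymes of liver metabolism were called in both directions. Of 18 cytochrome P450 and bile acid enzymes 5 were higher in NuG and 6 lower (median 0.13), close to the 24.3% and 26.7% over all tested genes, and with the mouse as a block 8 were higher and 7 lower. Cyp7a1, the rate-limiting enzyme of bile acid synthesis, was at 483, 943 and 784 CPM in NuG and 95.9, 189 and 170 CPM in Tru4. The groups did not overlap, and mouse 1 was the lowest in both (2.29 ± 0.29, edgeR adjusted p = 9.6e-05). Cyp8b1, which steers bile acids towards cholic acid and was chosen after its values were seen, had 98.3, 102 and 125 CPM in NuG and 295, 348 and 534 CPM in Tru4 (-1.85 ± 0.23, edgeR adjusted p = 7.7e-05). Both enzymes belong to the same pathway, and the transcripts of Cyp7a1 and Cyp8b1 have 39.7% and 54.8% GC.

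Of 13 genes of the urea cycle and amino acid breakdown, 8 were lower in NuG and the other 5 did not pass the test (median -0.90), and with the mouse as a block 9 were lower and 3 higher. Over all tested genes 24.3% were higher and 26.7% lower. Hpd, an enzyme of tyrosine breakdown, had 624, 557 and 584 CPM in NuG and 1501, 1427 and 1566 CPM in Tru4 (-1.34 ± 0.12, edgeR adjusted p = 9.8e-06). Sds, serine dehydratase, had 3.23, 5.33 and 5.54 CPM in NuG and 21.5, 45.1 and 61.3 CPM in Tru4 (-3.19 ± 0.42, edgeR adjusted p = 0.00012). Of 14 genes of gluconeogenesis and glycolysis 1 was higher and 5 lower (median -0.22, above 0 on thinned counts), and with the block 4 were higher and 6 lower. Pcx, pyruvate carboxylase, had 77.6, 55.2 and 96.4 CPM in NuG and 441, 404 and 596 CPM in Tru4 (-2.65 ± 0.23, edgeR adjusted p = 9.8e-06). Of 13 genes of cholesterol and fatty acid synthesis 1 was higher and 4 lower (median -0.09, above 0 with the fractions as labelled and without mouse 3), and with the block 4 and 6. The share lower in this list without the block, 30.8%, was near the 26.7% over all tested genes. Srebf1, a transcription factor of lipid synthesis, had 56.8, 57.6 and 40.6 CPM in NuG and 248, 235 and 170 CPM in Tru4 (-2.06 ± 0.18, edgeR adjusted p = 1.2e-05).

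Some transcripts followed the mouse more than the kit. Scd1, a fatty acid desaturase, stood at 5673, 8047 and 32299 CPM in NuG and at 5741, 9550 and 37857 CPM in Tru4, so mouse 3 was highest in both kits. The kits differed by -0.20 ± 0.72 on the log2 scale (edgeR adjusted p = 0.84), and with the mouse as a block by an adjusted p of 0.0014. Mup3, a major urinary protein gene, had 1254, 929 and 455 CPM in NuG and 1148, 800 and 372 CPM in Tru4, which overlap (edgeR adjusted p = 0.69, with the block 0.0030). Of 6 tested major urinary protein genes none passed edgeR or DESeq2 without the block, and none had an unadjusted p under 0.05, while 3 were higher with the mouse as a block. Mup18 is not on that list and had 94.8, 21.6 and 2.95 CPM in NuG and 2.87, 0.534 and 0.258 CPM in Tru4 (5.11 ± 1.03, edgeR adjusted p = 0.0019). The genes of this cluster are near-identical, so their unique counts are uncertain.

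TEC and sense intronic loci took a larger share of counts in NuG. The annotation calls TEC those loci that await experimental proof, and sense intronic those that lie in an intron on the strand of the host gene. As a share of counts, which no filter touches, TEC took 0.163%, 0.151% and 0.131% in NuG and 0.0270%, 0.0297% and 0.0279% in Tru4, and sense intronic loci took 0.0225%, 0.0168% and 0.0191% against 0.00349%, 0.00381% and 0.00350%. Both shares stood apart between the kits, by 5.25-fold and 5.40-fold. Of 1110 TEC loci with a read 251 passed the filter on low counts, with 187 higher in NuG and 3 lower, and of 34 tested sense intronic loci 25 were higher while the other 9 did not pass. These counts are a description, since loci at or near 0 in Tru4 passed the filter only through NuG. On counts thinned to 1 depth 53 loci of both classes were tested and 43 were higher.

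The tested loci are split by position in the same descriptive way. Of the TEC loci, 170 lay within a protein-coding gene on its strand, and 142 of them were higher in NuG while the other 28 did not pass (median 3.96). On the opposite strand 18 of 28 were higher and 1 lower (median 2.93), and outside such genes 27 of 53 were higher and 2 lower (median 1.74). Antisense genes within a protein-coding gene were higher in 27 of 65 cases with the others not passing, and the remaining antisense genes in 21 of 116 with 4 lower. Neither kit marks the strand of the RNA and the counts do not use it, so reads of a locus and of a gene that overlaps it, on either strand, cannot be told apart. As a share the antisense class was alike in both kits, with 0.140% ± 0.0132 (SD, n = 3) in NuG and 0.142% ± 0.0431 (SD, n = 3) in Tru4 (exact permutation p = 0.8). Exon counts leave out reads on no feature, which were 11.99%, 11.2% and 9.74% of the counted lines in NuG and 7.91%, 6.22% and 6.68% in Tru4.

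Named loci show the levels involved. Gm44250, the TEC locus with the highest mean, had 147.6, 163 and 157 CPM in NuG and 59.3, 75.1 and 57.7 CPM in Tru4 (1.29 ± 0.15, edgeR adjusted p = 4.5e-05). Gm42551 had 7.27, 18.9 and 8.12 CPM in NuG and 0, 0 and 0.0862 CPM in Tru4, where 3 reads were found in all. 9330162G02Rik, a TEC locus of 30942 bases, had 45.5, 17.9 and 25.1 CPM in NuG and 1.67, 1.60 and 0.517 CPM in Tru4 (4.56 ± 0.46, edgeR adjusted p = 2.3e-05). Egfros, antisense to the growth factor receptor gene Egfr, had 43.9, 11.99 and 14.0 CPM against 0.947, 0.289 and 0.775 CPM (5.16 ± 0.58, edgeR adjusted p = 4.7e-05). Ppnr, a sense intronic locus, had 7.81, 7.73 and 16.6 CPM against 0.0326, 0.423 and 0.0574 CPM (5.80 ± 0.75, edgeR adjusted p = 0.00011). NuG libraries of these loci varied by up to several fold among the mice, yet stayed above the Tru4 libraries.

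Long noncoding RNAs that stay in the nucleus were mostly higher in NuG. Of 10 listed genes 7 were tested and 5 were higher, while the other 2 did not pass (median 1.31), beside 24.3% higher over all tested genes. Kcnq1ot1, an imprinted transcript of 93092 bases that is antisense to the potassium channel gene Kcnq1, had 68.7, 83.9 and 76.1 CPM in NuG and 4.77, 4.14 and 3.96 CPM in Tru4. That is a difference of 4.17 ± 0.17 (edgeR adjusted p = 6.6e-07), or 17.9-fold, with tight groups. Malat1, an abundant RNA of nuclear speckles, had 1287, 1375 and 1978 CPM in NuG and 243, 283 and 340 CPM in Tru4 (2.43 ± 0.20, edgeR adjusted p = 7.3e-06). Neat1, the scaffold of nuclear paraspeckles, had 63.0, 38.6 and 42.1 CPM in NuG and 65.4, 42.5 and 58.0 CPM in Tru4, which overlap (-0.19 ± 0.22, edgeR adjusted p = 0.49). Neat1 was chosen after its values were seen.

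The wider noncoding classes were less one-sided. Of 184 tested lincRNA genes 49 were higher in NuG, a proportion near the 24.3% over all tested genes, and 10 lower, beside 26.7% over all (median 0.70), and their share was 0.272%, 0.267% and 0.408% of NuG counts and 0.123%, 0.123% and 0.151% of Tru4 counts. Of 12 tested host genes of small nucleolar RNAs 3 were higher and 1 lower (median 0.19), also near the 24.3% for higher genes. Gas5, such a host whose spliced RNA decays when translated, had 84.04, 87.4 and 84.9 CPM in NuG and 51.8, 32.6 and 35.2 CPM in Tru4 (1.12 ± 0.18, edgeR adjusted p = 0.00049). Nuclear protein-coding genes took most of the libraries, 80.7% ± 0.850 (SD, n = 3) in NuG and 90.2% ± 0.933 (SD, n = 3) in Tru4.

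Ribosomal protein genes were lower in NuG in most of their calls. The group holds 85 tested genes with a ribosomal protein symbol, a rule that also takes in a few relatives. Of these, 40 were lower and 9 higher (median log2 fold change -0.60), beside 26.7% and 24.3% over all tested genes. The share of counts of the ribosomal protein genes was 0.269%, 0.257% and 0.262% in NuG and 0.471%, 0.415% and 0.446% in Tru4, which is 1.69-fold lower. Rps2, a protein of the small subunit, had 7.27, 2.66 and 6.65 CPM in NuG and 233, 173 and 209 CPM in Tru4. This was the largest fall of the group (-5.22 ± 0.29, edgeR adjusted p = 1.2e-06), and Rps16, also of the small subunit, came next with 1.08, 0.533 and 1.48 CPM against 26.1, 24.9 and 25.5 CPM (-4.67 ± 0.32, edgeR adjusted p = 2.7e-06). Rpl4, a large subunit protein, had 349, 311 and 298 CPM in NuG and 484, 409 and 540 CPM in Tru4 (-0.57 ± 0.14, edgeR adjusted p = 0.0065).

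Rpl22, the gene that carries the tag, had 56.6, 48.5 and 59.1 CPM in NuG and 77.6, 69.7 and 81.9 CPM in Tru4 (-0.47 ± 0.15, edgeR adjusted p = 0.020). The call was lost without the NuG library of mouse 2 (adjusted p = 0.052) and without the Tru4 library of mouse 1 (0.062) or mouse 3 (0.064).

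Ribosomal protein genes have many processed pseudogenes, and reads that fit several copies were dropped, so the counts of gene and copy are uncertain. The pseudogenes shared the direction of the genes, with 40 of 74 lower and 8 higher (median -1.05), beside 26.7% and 24.3% over all tested genes. Over all processed pseudogenes 407 of 1016 were lower and 137 higher (median -0.69), and their share was 1.63%, 1.61% and 1.62% in NuG and 2.50%, 2.37% and 2.53% in Tru4. Rpl3-ps2 had 0.539, 1.07 and 1.11 CPM in NuG and 27.3, 19.7 and 27.5 CPM in Tru4 (-4.79 ± 0.35, edgeR adjusted p = 3.8e-06). Reads that aligned to more than 1 place were 16.5%, 15.2% and 15.7% of the counted lines in NuG and 22.6%, 19.9% and 21.2% in Tru4.

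Histone mRNAs of dividing cells end in a stem-loop in place of a poly(A) tail, while variant histones are polyadenylated, which makes the families a natural pair. As a class the replication-dependent histones took a smaller share of counts in NuG, with 0.0144%, 0.0139% and 0.0136% against 0.0210%, 0.0166% and 0.0150% in Tru4, and the kits did not overlap (exact permutation p = 0.1, the smallest possible). By gene the picture was mixed: of 68 genes 46 had a read and 12 were tested, with 6 higher and 3 lower in NuG (median 1.12, and -0.38 on thinned counts, where 3 genes were tested, none was higher by edgeR, 0 of them in that direction at an unadjusted p under 0.05, and Hist1h1c was lower by 0.65 with an adjusted p of 0.026). Hist1h2bl, an H2B gene, had 4, 8 and 4 reads in NuG and no read in any Tru4 library, which is at least 57.5-fold higher against a limit of 3 counts over the Tru4 group. The calls and the median by gene are a description, since a gene at or near 0 in Tru4, as Hist1h2bl was, passed the filter only through NuG. Hist1h1e, a linker histone chosen after its values were seen, had 3.23, 7.46 and 4.43 CPM in NuG and 0.816, 0.289 and 0.977 CPM in Tru4 (2.88 ± 0.61, edgeR adjusted p = 0.0025). Of 9 tested polyadenylated variants 6 were lower in NuG and the other 3 did not pass (median -0.64). Over all tested genes 24.3% were higher and 26.7% lower. H1f0, the linker histone of resting cells, had 113 CPM in all NuG libraries and 182, 168 and 175 CPM in Tru4 (-0.62 ± 0.12, edgeR adjusted p = 0.0016). H3f3a, a gene for variant H3.3, had 5.66, 4.80 and 6.28 CPM against 29.3, 29.1 and 25.2 CPM (-2.32 ± 0.21, edgeR adjusted p = 1.3e-05).

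The stem-loop was searched in the annotated transcripts as a fixed run of letters, shown here because it marks the end of histone mRNAs without a tail, with 1 loop base, the C after the run of T, free to vary.
stem-loop found: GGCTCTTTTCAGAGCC
These letters occurred on the sense strand of 5 of 14153 tested transcripts (0.0353%), and all 5 were among the 12 tested replication-dependent histones. The other 7 did not hold these letters in the annotated transcript, Hist1h2bl among them. Where found, the letters began at base 705 of 1560 (Hist1h1c), 762 of 1930 (Hist1h1e), 630 of 2506 (Hist1h2be), 488 of 2146 (Hist3h2a) and 628 of 1020 (Hist2h3c2). These annotated transcripts thus run on past the stem-loop, and whether the counted reads come from forms with or without a tail was not tested. Of the 5 with the letters, Hist1h1e and Hist3h2a were higher in NuG, Hist1h1c was lower, and Hist1h2be and Hist2h3c2 did not pass the test. Without single libraries the call of Hist1h1c was lost for NuG mouse 1 (edgeR adjusted p = 0.062) and mouse 2 (0.098) and for Tru4 mouse 1 (0.146) and mouse 2 (0.054), and that of Hist3h2a for NuG mouse 1 (0.051). With Tru70 as the reference Hist3h2a did not pass either (3.43, adjusted p = 0.054). Hist1h1e and Hist1h2be overlap in the genome. Apart from Hist1h2bl, the histones of this paragraph and Hist1h1e were chosen after their values were seen.

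Small structural RNAs were rare in both kits, and their classes did not move together. snRNA took 0.00333% ± 0.00117 (SD, n = 3) of NuG counts and 0.000756% ± 0.000258 (SD, n = 3) of Tru4 counts, which is 4.40-fold higher, and snoRNA 0.00394% ± 0.00123 against 0.00148% ± 0.0000269 (2.65-fold), with no overlap in either class (exact permutation p = 0.1). Only 2 snRNA and 4 snoRNA genes were tested, and 1 of each was higher, Gm29163 (4.14 ± 0.99, edgeR adjusted p = 0.0053) and Gm24357 (2.08 ± 0.68, edgeR adjusted p = 0.025). Of 5 tested genes of the misc RNA class Gm26372 was higher (5.22 ± 0.83, edgeR adjusted p = 0.00042) and 2 were lower, Rn7sk and Gm26035, which was chosen after its values were seen (-3.59 ± 0.94, edgeR adjusted p = 0.0087). These calls rest on few reads. That of Gm29163 was lost without the NuG library of mouse 2 (adjusted p = 0.075), and that of Gm24357 without the NuG library of mouse 1 (0.22) or mouse 2 (0.084), with the mouse as a block (0.098) and with Tru70 as the reference (0.12). With Tru70 the call of Gm26035 was lost too (0.11). Of 10 listed products of RNA polymerase III and other structural RNAs 2 were tested and both were lower in NuG. Rn7sk, the 7SK RNA that holds back transcription elongation, had 4.31, 4.26 and 3.32 CPM in NuG and 46.2, 14.2 and 12.9 CPM in Tru4, where mouse 1 was the highest (-2.58 ± 0.53, edgeR adjusted p = 0.0022). Rpph1, the RNA of RNase P, had 0.808, 1.07 and 3.32 CPM in NuG and 18.9, 4.56 and 3.99 CPM in Tru4 (-2.47 ± 0.78, edgeR adjusted p = 0.021). The call of Rpph1 was lost without the NuG library of mouse 1 (adjusted p = 0.089) or mouse 2 (0.090) or the Tru4 library of mouse 1 (0.106), and with Tru70 as the reference the sign turned. The other 8 genes had at most 15 reads in any library.

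Of the loci annotated as miRNA, 6 of near-identical sequence held most of the counts. They are shown because 3 have the same letters, so a read inside them cannot be placed by the locus alone. The sequences are from the GRCm38 annotation, 5′ to 3′, and capitals mark bases that differ from Gm23935, with positions counted from 1 at the 5′ end.
Gm23935: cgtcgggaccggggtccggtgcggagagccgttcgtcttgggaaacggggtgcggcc
Gm24270: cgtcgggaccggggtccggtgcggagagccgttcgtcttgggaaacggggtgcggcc
Gm24245: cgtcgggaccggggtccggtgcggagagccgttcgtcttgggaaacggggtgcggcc
Gm24187: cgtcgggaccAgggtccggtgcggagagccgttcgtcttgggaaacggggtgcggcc
Gm23388: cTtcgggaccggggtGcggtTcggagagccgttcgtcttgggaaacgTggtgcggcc
Gm25911: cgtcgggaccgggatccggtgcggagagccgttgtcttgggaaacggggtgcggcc
Gm24187 carries G11A, and Gm23388 carries G2T, C16G, G21T and G48T. Gm25911 is 56 bases long against 57 for the others and was not aligned. The loci lie at chr16:11144125-11144181 (Gm23935, plus strand), chr9:56223715-56223771 (Gm24270, minus), chr4:139338304-139338360 (Gm24245, plus), chr13:9834469-9834525 (Gm24187, minus), chr8:85112012-85112068 (Gm23388, minus) and chr1:167340369-167340424 (Gm25911, minus).

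The 6 loci did not move together. Gm23935 had 6099, 5210 and 6535 CPM in NuG and 1985, 925 and 1041 CPM in Tru4 (2.19 ± 0.25, edgeR adjusted p = 5.2e-05). Gm24187, which differs by 1 base, had 5.12, 2.13 and 5.17 CPM in NuG and 129, 48.4 and 67.9 CPM in Tru4 (-4.31 ± 0.43, edgeR adjusted p = 2.2e-05). Thus loci 1 base apart differed in opposite directions. Gm24270 and Gm24245, identical in sequence to Gm23935, were higher by 0.77 ± 0.20 and 3.18 ± 0.69 (edgeR adjusted p = 0.0089 and 0.0031), and Gm24270 lost its call without the NuG library of mouse 1 (adjusted p = 0.052) and without mouse 3 in both kits (0.084). Gm25911 was lower (-1.64 ± 0.25, edgeR adjusted p = 0.00030) and Gm23388 did not pass (0.90 ± 0.74, edgeR adjusted p = 0.34). Summed over the loci the level was 7534, 6289 and 7926 CPM in NuG and 3286, 1614 and 1907 CPM in Tru4. With such sequences the split of reads between loci is uncertain, and no mature miRNA was measured. These 6 loci were not among the rRNA genes left out, so they stayed in the library totals and the scaling. Which RNA their reads come from was not tested. All loci but Gm23935 and Gm24187 were chosen after their values were seen.

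Genes that are often used as references were called in both directions. Of 15 listed genes 5 were higher and 4 lower, beside 24.3% and 26.7% of all tested genes (median -0.03, above 0 with DESeq2, on thinned counts and with Tru70 as the reference). Ywhaz, a 14-3-3 protein chosen after its values were seen, had 379, 393 and 320 CPM in NuG and 84.2, 73.0 and 84.01 CPM in Tru4 (2.19 ± 0.14, edgeR adjusted p = 2.1e-06). B2m, the light chain of class I histocompatibility molecules, was 2.04-fold higher (1.03 ± 0.13, edgeR adjusted p = 7.7e-05). Actb, the cytoskeletal actin gene also chosen after its values were seen, had 455, 401 and 428 CPM in NuG and 488, 447 and 418 CPM in Tru4, which overlap (-0.06 ± 0.12, edgeR adjusted p = 0.69). Gapdh, an enzyme of glycolysis, was low in both kits, with 1.35, 1.87 and 2.58 CPM in NuG and 2.55, 3.803 and 4.51 CPM in Tru4 (-0.93 ± 0.47, edgeR adjusted p = 0.12), and it has many near-identical pseudogenes.

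Immediate early genes, which cells switch on within minutes of a stimulus, differed by gene. Of 13 tested genes 5 were higher in NuG and 4 lower, beside 24.3% and 26.7% over all tested genes (median -0.60, and 0.39 on thinned counts). Jund, a subunit of the AP-1 transcription factor whose start is printed above, had 6.46, 4.80 and 5.17 CPM in NuG and 47.8, 38.7 and 37.7 CPM in Tru4 (-2.90 ± 0.21, edgeR adjusted p = 3.5e-06). Klf6, a zinc finger transcription factor with 42.4% GC that was chosen after its values were seen, had 31.2, 26.4 and 19.2 CPM in NuG and 8.91, 9.90 and 7.12 CPM in Tru4 (1.59 ± 0.23, edgeR adjusted p = 0.00021).

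Markers of the cell types of liver were present in both kits. Their calls stand beside 24.3% higher and 26.7% lower over all tested genes. Near these shares were the Kupffer cell (30%) and lymphocyte (20%) markers called higher, and the hepatocyte and erythroid markers called lower (33.3% each). Kupffer cell markers, from the resident macrophages, summed to 489, 480 and 433 CPM in NuG and 457, 432 and 470 CPM in Tru4, with all 10 detected in every library, 3 higher and 1 lower. Endothelial markers summed to 280, 270 and 293 CPM in NuG and 184, 184 and 163 CPM in Tru4, with 5 of 7 higher and the other 2 not passing. Stellate cell markers summed to 486, 502 and 458 CPM against 346, 369 and 326 CPM, with 3 of 7 higher and 3 lower. Hepatocyte markers summed to 123579, 127829 and 120935 CPM in NuG and 159112, 172859 and 158739 CPM in Tru4, with 2 of 6 lower (with the mouse as a block 4 lower and 1 higher). Erythroid markers summed to 1356, 1189 and 1169 CPM in NuG and 1755, 1500 and 1368 CPM in Tru4, with 2 of 6 lower. Markers of lymphocytes, neutrophils and cholangiocytes summed to under 50 CPM in every library, with 1 of 5 tested lymphocyte markers higher, and none of the 5 tested cholangiocyte markers nor the 1 tested neutrophil marker passed edgeR or DESeq2 or an unadjusted p under 0.05. In bulk RNA fewer cells of a type and less RNA per cell cannot be told apart, and here both kits were given RNA of the same mice.

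Markers were called in both directions within the Kupffer cell and stellate cell lists, but in 1 direction only within the endothelial and erythroid lists. Lyve1, a hyaluronan receptor of liver sinusoids, had 30.2, 46.9 and 45.4 CPM in NuG and 10.7, 16.9 and 10.3 CPM in Tru4 (1.70 ± 0.25, edgeR adjusted p = 0.00025). Vsig4, a complement receptor of Kupffer cells, had 55.8, 61.6 and 54.3 CPM in NuG and 22.7, 23.5 and 23.2 CPM in Tru4 (1.32 ± 0.14, edgeR adjusted p = 3.6e-05). C1qa, a chain of complement C1q made by the same cells, had 31.8, 30.9 and 27.3 CPM in NuG and 55.3, 50.1 and 55.8 CPM in Tru4 (-0.83 ± 0.15, edgeR adjusted p = 0.00089). With Tru70 as the reference the call of C1qa was lost (-0.19, edgeR adjusted p = 0.44). The transcript of Vsig4 has 44.6% GC and that of C1qa 59.5%. C1qb, another chain of C1q with 57.4% GC, was chosen after its values were seen. It had means of 54.0 CPM in NuG and 48.6 CPM in Tru4 and did not pass in input. Its values were 0.09 and edgeR adjusted p = 0.66, from the fit that also holds the IP libraries. Hba-a2, an alpha globin gene, had 390, 344 and 342 CPM in NuG and 641, 535 and 510 CPM in Tru4 (-0.63 ± 0.13, edgeR adjusted p = 0.0020).

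Among protein-coding genes with a mean of at least 10 CPM in either kit, the largest falls ended near the limit of detection in NuG. They were led by CAAA01147332.1 (-6.97), a locus with no gene name, then Rps2, Gpx4 and Rps16. Gpx4, which encodes a selenoprotein that protects membranes from lipid peroxides, had 2.42, 0.799 and 0.738 CPM in NuG and 43.3, 38.8 and 43.6 CPM in Tru4 (-4.92 ± 0.32, edgeR adjusted p = 2.3e-06). Bckdha, a subunit of the enzyme complex that breaks down branched-chain amino acids, had 2.15, 1.87 and 2.58 CPM in NuG and 42.8, 53.1 and 41.9 CPM in Tru4 (-4.39 ± 0.24, edgeR adjusted p = 1.2e-06). Mpc1, a subunit of the mitochondrial pyruvate carrier, had 1.89, 3.46 and 0 CPM in NuG and 33.1, 35.5 and 42.7 CPM in Tru4 (-4.25 ± 0.45, edgeR adjusted p = 2.9e-05). Cox17, a copper chaperone of cytochrome c oxidase, was among the largest rises, with 13.5, 20.8 and 19.9 CPM in NuG and 0.881, 1.67 and 2.24 CPM in Tru4 (3.49 ± 0.38, edgeR adjusted p = 3.7e-05).

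Few genes that were well measured in one kit were lost in the other. Of 7754 genes with a mean of at least 10 CPM in Tru4, 18 had a mean under 1 CPM in NuG, and none was without a read in all NuG libraries. Of 7201 genes with a mean of at least 10 CPM in NuG, 5 had a mean under 1 CPM in Tru4. Of the tested genes 16 had no read in any Tru4 library, led by the TEC locus Gm44559, which was at least 182-fold higher in NuG. No NuG read was found for 41 tested genes, led by the pseudogene Gm8524, which was at least 12.3-fold lower in NuG, with the limit of 3 counts taken over the shallower NuG group.

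Detection was compared as deposited and at equal depth. Genes outside the rRNA set with 1 read or more numbered 16936, 16445 and 15612 in NuG and 19887, 19844 and 19616 in Tru4. Thinned to 2708322 counts without rRNA in each library the numbers were 16378, 15947 and 15612 in NuG and 15921, 15823 and 15748 in Tru4, and the libraries of the kits then overlapped (exact permutation p = 0.7). Over 5598 genes the biological coefficient of variation between the mice was 18.8% in NuG and 15.1% in Tru4, and 18.9% and 15.7% at equal depth.

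The same kits were used on the RNA that came down with the HA antibody from the same mice, in 6 other libraries. There 3529 of 14777 genes were higher in NuG (23.9%) and 3812 lower (25.8%). Of the 3304 genes higher in input that were tested in both, 2463 were higher in IP too, which is 74.5% of the input calls and 69.8% of the IP calls, and 7 were lower. Of 3706 genes lower in input 2720 were lower in IP (73.4% and 71.4%), and 5 were higher. The Spearman correlation of the log2 fold changes across 13492 genes was 0.835, a description across genes that share composition and mice but no library. The difference between the fractions itself passed for 81 of 15733 genes (0.515%), a count that was 6 without mouse 3, 336 with the mouse as a block and 0 with the fractions as labelled (edgeR, 192 at an unadjusted p under 0.05). The median log2 fold change in IP fell from 1.05 in genes of 35% to 40% GC to -1.81 in genes of 60% to 65%.

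**Figure D5:**
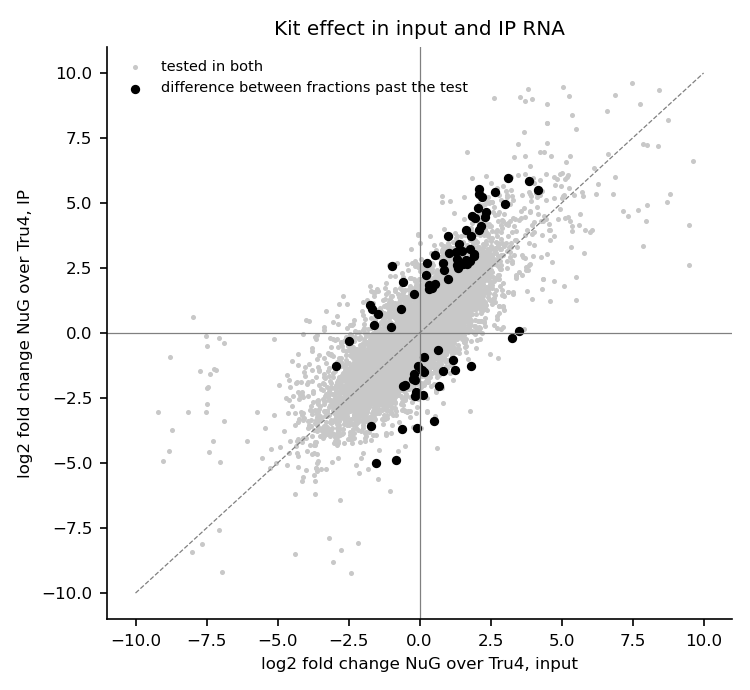
Log2 fold change of NuG over Tru4 in input (x axis) and in IP (y axis) for 13524 genes tested in both, with the line of equal change dashed. The 80 black points are genes whose difference between the fractions passed the test, and the cloud follows the dashed line.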

How the data were processed

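Livers of 3 RiboTag mice gave the RNA, and the libraries were sequenced as paired ends on an Illumina HiSeq. The authors trimmed reads with Trimmomatic and to 60 bases with the FASTX Toolkit 0.0.13, aligned them to GRCm38 with TopHat 2.0.8 and deposited whole-number counts of reads per gene over exons, from unique alignments (HTSeq and Bedtools 2.7.1 are both named for counting). Neither kit keeps the strand, and the study did not use it. Classes, GC content and length came from GENCODE M21, which matched 47310 of 47729 gene IDs.

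Differences between kits came from the quasi-likelihood test of edgeR 4.0.16, run under R 4.3.3 (filterByExpr, TMM scaling, Benjamini-Hochberg adjustment at 0.05, no block). Before scaling, 360 rRNA genes were removed, and lines that name no gene were kept out of library sizes: reads on no feature were 12.0%, 11.2% and 9.74% of counted lines in NuG and 7.91%, 6.22% and 6.68% in Tru4, and ambiguous reads 4.34%, 3.96% and 4.43% against 9.87%, 7.39% and 8.07%. The SE of a log2 fold change was its size divided by the square root of F. Shares were compared with two-sided exact permutation tests. Replicate numbers mark the same mouse in both kits, and same-numbered libraries deviated together (correlations 0.47, 0.35 and 0.53 over 7753 genes), so a fit with the mouse as a block was an alternative. Both kits were given RNA of the same mice, so p-values measure the spread between these mice and preparations. The other alternatives were DESeq2 1.42.0, other scalings and filters, single libraries left out, counts thinned to 1 depth, fractions as labelled and Tru70 as the reference. On simulated counts the fit called 25.5% of the 2-fold and 83.7% of the 4-fold changes, and 4.46% of its calls were false. The test of a difference between the fractions called 53.1% of simulated 4-fold differences. A gene that did not pass may thus still differ.

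The genes, lists and tests were chosen with earlier results of these data known. Named genes are the label genes with Alb and Gapdh, the 10 protein-coding and 6 other called genes with the largest change in each direction whose kits do not overlap and whose mean is at least 10 CPM in either kit, the 5 most abundant genes of each kit, and of each list or class the called member that is most abundant and the one that changed most. Others are marked as chosen after their values were seen. Not all genes that the rule names are reported here.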

Additional observations from a re-analysis of the deposited data

Results flagged for a closer look

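The difference between kits was set against the same difference in the IP libraries by an interaction term over 15733 genes (edgeR's quasi-likelihood test). It passed for 81 genes (0.515%), 53 with a higher NuG over Tru4 value in IP and 28 with a lower one, and 2160 had an unadjusted p under 0.05. The count was 6 without mouse 3, 336 with the mouse as a block and 0 with the fractions as labelled (192 unadjusted). Of the genes described in the report 7 passed besides C1qb, with fold changes on the log2 scale and adjusted p from that test.

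C1qa, the complement gene of Kupffer cells, differed most, by -3.998 (adjusted p = 5.2e-07), from -0.90 in input to -4.90 in IP. Hba-a2, an alpha globin gene of erythroid cells, differed by -3.00 (adjusted p = 0.0016), from -0.71 to -3.71. Both are markers of cells whose RNA is enriched in these IP libraries, where Kupffer cell markers summed to 10478, 14127 and 11659 CPM in NuG and 17882, 24809 and 23158 CPM in Tru4. Erythroid markers summed there to 31422, 28840 and 17896 CPM in NuG and 218006, 145095 and 131053 CPM in Tru4. The Kupffer cell markers Clec4f and C1qb also passed, with smaller differences than C1qa (-1.31 and -1.03). The other listed Kupffer cell markers, Vsig4 among them, were not among the genes that passed. The globin genes Hba-a1, Hbb-bs and Hbb-bt passed too (-3.51, -2.23 and -2.44), and the remaining listed erythroid markers were not among the genes that passed.

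The other 5 genes described in the report were larger in IP. mt-Nd5 differed by 2.85 (adjusted p = 0.00062), from 2.57 to 5.42, and mt-Nd6, its neighbour on the other strand, by 1.89 (adjusted p = 0.0082), from 1.20 to 3.09. Zfp871 differed by 2.04 (adjusted p = 0.011), from 3.78 to 5.82. Kcnq1ot1 differed by 1.38 (adjusted p = 0.036), from 4.09 to 5.48, and Macf1 by 1.23 (adjusted p = 0.024), from 1.55 to 2.78. Why these genes differ between fractions was not tested.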

How the results depend on the processing

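The counts of 3442 genes higher and 3784 lower in NuG moved by under 1.5 times under every alternative but the fractions as labelled, which mix input and IP within each kit and left 1017 and 1214. The other counts were 3834 and 3817 with DESeq2, 3526 and 4472 with no filter, 2872 and 2914 on thinned counts, 3152 and 3657 with Tru70, 3593 and 4141 with the replicate block, and 2783 to 3323 and 2966 to 3908 with 1 library left out. The block, which pairs the libraries by mouse, made calls of Scd1 and Mup3. With the fractions as labelled (edgeR alone), the calls were 704 lower over 55% GC, 278 higher at most 40% GC, 100 higher over 10 kb, 174 processed pseudogenes lower, 21 ribosomal protein genes lower, 1 histone higher, 3 respiratory chain genes lower, 1 urea cycle gene lower, and 0 secreted genes lower, 0 mitochondrial mRNAs higher and 0 endothelial markers higher (0, 0 and 1 at an unadjusted p under 0.05). Thinning, which leaves fewer reads, gave 43 TEC and sense intronic loci higher, 260 processed pseudogenes lower, 0 of 3 tested histones higher (0 higher unadjusted) and 3 endothelial markers higher. The count of 81 genes with a different kit effect in IP became 0 as labelled (192 unadjusted), 6 without mouse 3 and 336 with the replicate block that pairs mice (232 larger and 104 smaller in IP).

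With Tru70 as the reference the sign turned for Gm25911 (3.23) and Rpph1 (0.37), both called with Tru4. On thinned counts the medians of replication-dependent histones (-0.38) and immediate early genes (0.39) turned. Scd1 was at 0.049 with Tru70 and between -1.43 and 1.06 with 1 library left out, Actb at 0.026 thinned and -0.15 to 0.0047, Mup3 at -0.19 to 0.60, Neat1 at 0.015 thinned, and Hist2h3c2 at -0.82 to 0.24. The differences in share (NuG minus Tru4, percentage points) were 0.00111 as labelled, 0.00233 with Tru70 and -0.00133 to 0.00105 with 1 library left out for mitochondrial tRNA, 0.0305, 0.0497 and -0.0223 to 0.0206 for antisense genes, and 0.000325 with Tru70 and -0.00141 to 0.000545 for misc RNA. With all exon counts as the denominator, nuclear genes of at most 40% GC were at -0.500. Genes with at least 1 read differed by -3451 without thinning and by -51.2 to 331.8 with 1 library left out. Tru70 as the reference ended the calls of C1qa, H1f0, Rpl4, Trf, Hist3h2a, Gm24357 and Gm26035, and the causes were not tested. At 2708322 to 3752962 counts, genes under about 1 CPM are not resolved in NuG.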
